A study of Mus musculus with 24 samples.

Results

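Immediate early genes are transcribed within minutes of a stimulus, and the set described here holds 10 of them, Atf3, Fos, Fosb, Jun, Junb, Egr1, Ier2, Ier3, Dusp1 and Zfp36. The members are all probe sets whose only gene name is 1 of these symbols, which gave 11 of the 45101 probe sets on the array, 2 for Jun and 1 for each other gene. All 11 were over the filter for low signal, set at a log2 signal of 2.83, in 24 of 24 arrays. The members are 10 of 18193 genes named on the array and of the 13485 genes tested.

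The arrays measured 5 mammary tumours of C57BL6/J Apc+/1572T mice, named A to E, and 3 pools of normal mammary glands of C57BL6/J Apc+/+ mice, named F to H. Apc is a scaffold of the complex that degrades beta-catenin, and the tumour mice carry 1 mutant and 1 normal copy in their germline, so tumour tissue and mutant genotype cannot be told apart. From every tumour and pool, single cells were stained and sorted into Lin-CD29hiCD24+, Lin-CD29+CD24+ and Lin- fractions, of 10000 cells each, where Lin- denotes removal of cells bearing lineage markers. CD29 is an integrin and CD24 a surface glycoprotein, and the CD29hiCD24+ gate is known in mouse mammary gland for basal cells and stem cell activity. The Lin- fraction may contain cells of both gates. The normal samples are pools, so they carry less of the spread between animals than the single tumours do, and age and treatment are not given in the labels.

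Fos, Fosb, Jun and Junb pair through leucine zippers to form AP-1, and Atf3, a related zipper protein, is induced by stress. Egr1 is a zinc finger transcription factor, Ier2 a nuclear protein of the early response and Ier3 an early response protein linked to cell survival. Dusp1 removes phosphate from the MAP kinases that drive this response, and Zfp36 (tristetraprolin) promotes decay of mRNAs that hold AU-rich elements, so both act as brakes. These genes are known to rise when tissue is digested and cells are sorted. Every array here is of sorted cells, so a response to dissociation and a level in the tissue cannot be told apart. A log2 signal comes from a mixture of cells, in which fewer cells of a type and less RNA per cell cannot be told apart. Levels are compared for 1 probe set between arrays, not between genes.

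The promoters of Atf3, Fosb, Jun and Dusp1 are shown because these genes were called with the largest differences, and between the normal gates Dusp1 ran in the opposite direction to the other three. They are RefSeq sequences on GRCm38.p6, from 250 bases before to 50 bases after the gene start, and 8 of the 10 genes were taken from that table. Capitals mark matches, on either strand, to a GC box (GGGCGG), an EGR site (GCGGGGGCG), a cAMP response element (TGACGTCA), a TATA box (TATAAA), an AP-1 site (TGANTCA) or a CArG box.
Atf3, chr1:191183284-191183583, minus strand: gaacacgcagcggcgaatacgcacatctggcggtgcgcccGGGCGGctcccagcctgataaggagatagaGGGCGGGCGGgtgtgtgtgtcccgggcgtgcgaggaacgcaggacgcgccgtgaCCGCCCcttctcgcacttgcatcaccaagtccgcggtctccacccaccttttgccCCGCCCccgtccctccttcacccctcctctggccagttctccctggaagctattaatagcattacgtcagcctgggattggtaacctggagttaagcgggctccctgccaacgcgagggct
Fosb, chr7:19309996-19310295, minus strand: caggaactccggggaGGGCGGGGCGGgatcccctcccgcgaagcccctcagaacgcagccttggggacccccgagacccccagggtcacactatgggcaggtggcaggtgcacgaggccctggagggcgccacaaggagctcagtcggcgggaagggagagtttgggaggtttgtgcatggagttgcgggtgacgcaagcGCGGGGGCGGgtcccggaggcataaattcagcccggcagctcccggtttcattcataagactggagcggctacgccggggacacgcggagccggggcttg
Jun, chr4:95052173-95052472, minus strand: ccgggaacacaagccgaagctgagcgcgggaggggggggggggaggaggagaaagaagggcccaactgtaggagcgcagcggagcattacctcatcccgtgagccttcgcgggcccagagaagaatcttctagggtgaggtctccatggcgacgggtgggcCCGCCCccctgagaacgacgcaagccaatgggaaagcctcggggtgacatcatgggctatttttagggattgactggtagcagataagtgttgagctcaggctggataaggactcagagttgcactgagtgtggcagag
Dusp1, chr17:26508423-26508722, minus strand: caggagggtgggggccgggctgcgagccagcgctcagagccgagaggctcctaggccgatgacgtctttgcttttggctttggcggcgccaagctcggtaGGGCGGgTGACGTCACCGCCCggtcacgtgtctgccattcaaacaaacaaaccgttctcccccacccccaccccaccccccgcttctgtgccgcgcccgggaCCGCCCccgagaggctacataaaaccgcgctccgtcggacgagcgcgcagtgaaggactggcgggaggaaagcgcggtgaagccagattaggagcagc

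The Dusp1 window held the cAMP response element, its first base 143 bases before the start, with a GC box on each side. That element was in 1 of the 8 windows, and 1.79% of 32851 promoters of this length held it. The Fosb window held an EGR site 50 bases before the start, which overlaps a GC box, and Zfp36 held another 105 bases before it, where 2.91% of all promoters had a match. A CArG box, the kind of site that serum response factor binds, was matched 58 bases before the start of Zfp36 and in 1.63% of all promoters. GC boxes were in 7 of 8 windows and in 35.66% of all promoters, with 5 matches in Atf3, 3 in Fosb, 3 in Dusp1 and 1 in Jun. TATAAA was in the windows of Fos and Junb and in 13.62% of all promoters, and TGANTCA was in 0 of 8 windows against 7.81% of all. Variants of a site that differ by 1 letter are not counted, and sites outside the window were not searched.

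The labelled populations were checked against marker lists and RNA quality. The mean log2 signal of 9 basal markers ran from 8.70 to 10.83 in tumour CD29hiCD24+ arrays and from 12.81 to 13.08 in normal CD29hiCD24+ arrays, against 8.31 to 8.77 in tumour CD29+CD24+ arrays and 3.27 to 3.62 in normal CD29+CD24+ arrays. The means of 10 luminal markers were 7.35 to 8.70 and 8.68 to 10.80 in the tumour and normal CD29hiCD24+ arrays, and 8.57 to 11.29 and 12.48 to 12.66 in the tumour and normal CD29+CD24+ arrays. By these means the normal gates lay further apart than the tumour gates. Normal CD29hiCD24+ arrays also carried endothelial markers, with means of 6.63 to 9.44 over 10 genes, against 3.43 to 3.58 in normal CD29+CD24+ arrays, where 6 of the 10, including Cdh5 and Kdr, were in the low band. The pool F CD29hiCD24+ array had a mean of 8.09 over 9 leukocyte markers, against 3.11 and 3.15 in pools G and H. The signal of the 3' minus the 5' actin probe sets, which is larger where RNA is shorter, was 2.20 to 2.89 in normal CD29hiCD24+ and 1.41 to 1.83 in normal CD29+CD24+ arrays.

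**Figure D1:**
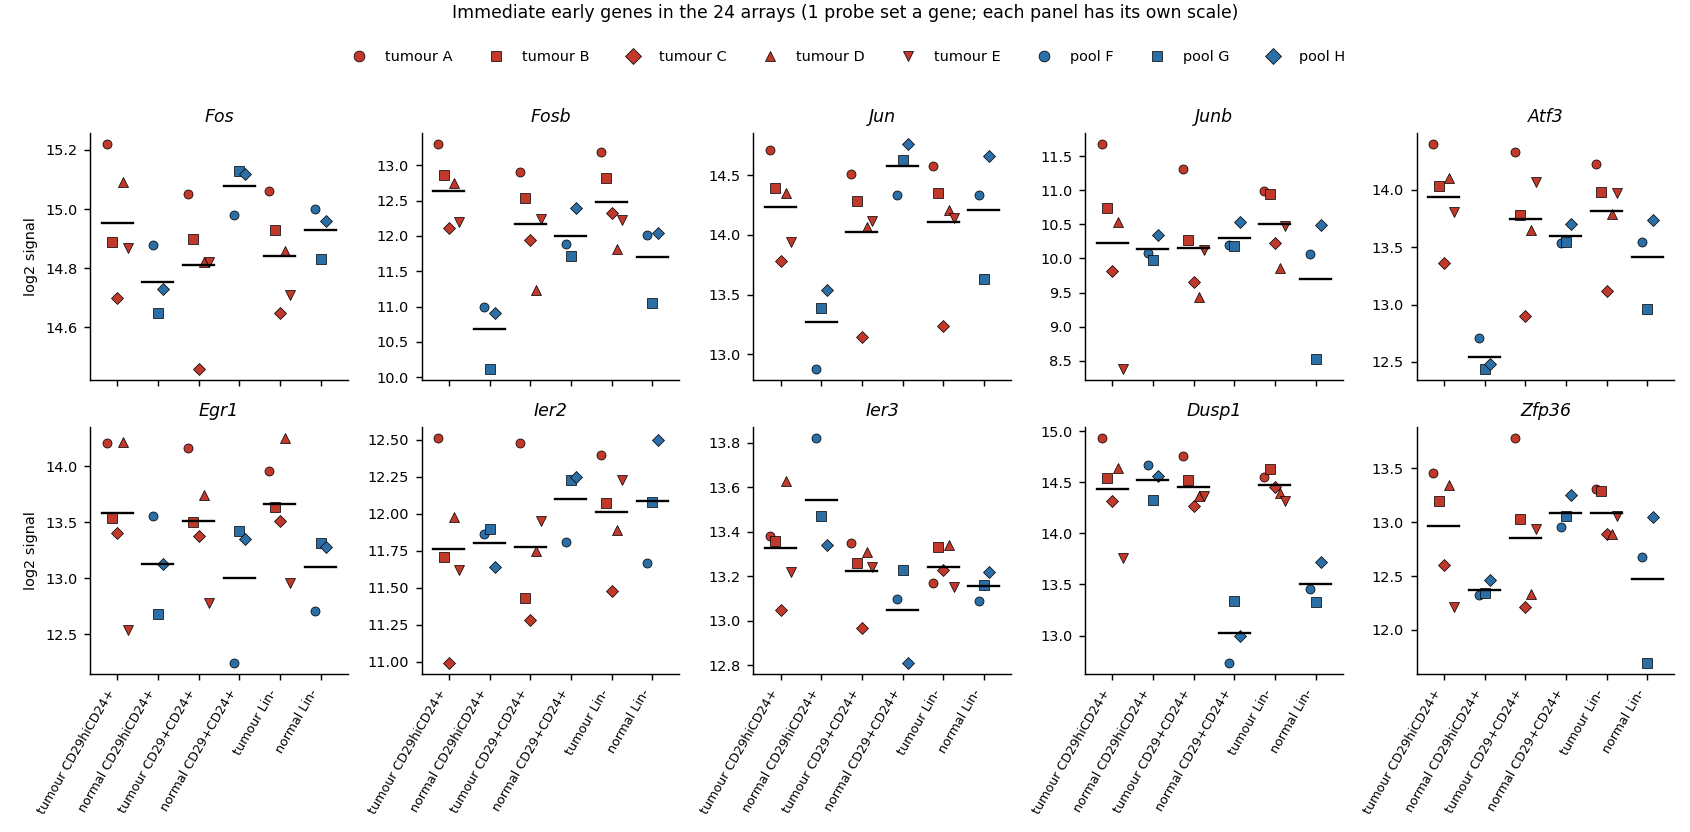
The log2 signal of each of the 10 genes in all 24 arrays, by group, with a panel and a scale for each gene. Points are single arrays, marked by tumour or pool, and bars are group means. Fosb and Atf3 are lowest in the 3 normal CD29hiCD24+ arrays, and Dusp1 has its lowest group mean in normal CD29+CD24+ cells, whose range overlaps that of normal Lin- cells.

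The series compares tumour with normal cells of the same gate. In CD29hiCD24+ cells Fosb, Atf3 and Jun were higher in tumours, by 3.9-fold, 2.63-fold and 1.95-fold, and the other 7 genes did not pass the test. These are 3 of 10 genes called higher, where 15.6% of all genes tested were, and 0 of 10 called lower, where 22.9% were. At an unadjusted p under 0.05 limma gave 3 higher and 0 lower, and the share of all genes at that threshold was not counted. After quantile normalisation 2882 genes were called higher and 2483 lower, in place of 2105 and 3094, so the background depends on the scaling. The median log2 difference of the 10 genes was 0.33, and that of all genes was -0.01. Cell type markers moved with this contrast: of 10 endothelial markers 0 were higher and 9 lower, with means of 3.03 to 3.86 in tumour and 6.63 to 9.44 in normal CD29hiCD24+ arrays, and Cdh5, Kdr, Cldn5 and Cd34 were in the low band in tumours. Of 9 basal markers 2 were higher and 5 lower, and of 10 luminal markers 1 was higher and 6 lower. The part of these markers in the results was not tested.

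Fosb, a partner of Jun proteins in AP-1, had log2 signals of 13.30, 12.86, 12.11, 12.75 and 12.19 in tumour CD29hiCD24+ cells A to E, against 11, 10.12 and 10.91 in normal cells F to H. Every tumour array was above every normal array. The difference was 1.96 ± 0.37 (SE, limma adjusted p = 0.000239). Atf3 had 14.40, 14.03, 13.36, 14.10 and 13.81 in tumour CD29hiCD24+ cells, against 12.71, 12.44 and 12.48 in normal cells. The groups did not overlap, and the difference was 1.39 ± 0.28 (adjusted p = 0.000453). With actin as a covariate these differences were 1.54 for Fosb (adjusted p = 0.00104) and 1.16 for Atf3 (adjusted p = 0.00278).

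Jun, the central AP-1 partner, had 14.71, 14.39, 13.78, 14.35 and 13.94 in tumour CD29hiCD24+ cells, against 12.88, 13.39 and 13.54 in normal cells, on the probe set that stands for the gene. The groups were separate by a small gap, and the difference was 0.96 ± 0.31 (adjusted p = 0.0171). The second Jun probe set had 12.66, 12.10, 11.59, 12.67 and 11.45 in tumour cells, against 10.64, 11.03 and 11.18 in normal cells. In a fit over 24278 probe sets, of which 34% were called in this contrast, its difference was 1.14 ± 0.27 (adjusted p = 0.00221). The Jun call was lost without the CD29hiCD24+ array of pool F, where the difference was 0.77 (adjusted p = 0.103), without all of pool F (0.77, adjusted p = 0.123), and with the actin covariate, where it was 0.68 (adjusted p = 0.0859).

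The other AP-1 members, Fos and Junb, were not called in the CD29hiCD24+ comparison. Fos had 15.22, 14.89, 14.70, 15.09 and 14.87 in tumour cells, against 14.88, 14.65 and 14.73 in normal cells, a difference of 0.20 ± 0.12 (adjusted p = 0.214). Without tumour C it was 0.27 (adjusted p = 0.05). Its values lay close to the highest value of any probe set, 16.06, and compression of differences there was not tested. Junb had 11.68, 10.74, 9.81, 10.54 and 8.38 in tumour cells, against 10.08, 9.98 and 10.34 in normal cells, a difference of 0.10 ± 0.55 (adjusted p = 0.912). Tumour E was the lowest Junb array of that group, and its actin 3' minus 5' signal of 2.47 was the highest of the 5.

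Among the other members in CD29hiCD24+ cells, Zfp36 differed by 0.59 ± 0.33 (adjusted p = 0.164) and Egr1 by 0.46 ± 0.38 (adjusted p = 0.368). Zfp36 passed after quantile normalisation, at 0.76 (adjusted p = 0.0499). Ier3 differed by -0.21 ± 0.13 and Ier2 by -0.04 ± 0.29, with adjusted p-values of 0.197 and 0.939. Dusp1 had 14.93, 14.54, 14.32, 14.64 and 13.76 in tumour cells, against 14.67, 14.33 and 14.56 in normal cells. These ranges overlapped, and the difference was -0.08 ± 0.19 (adjusted p = 0.781). These Dusp1 values lay in the upper part of the signal range, as did those of Jun and Atf3. Compression of differences there was not tested.

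**Figure D2:**
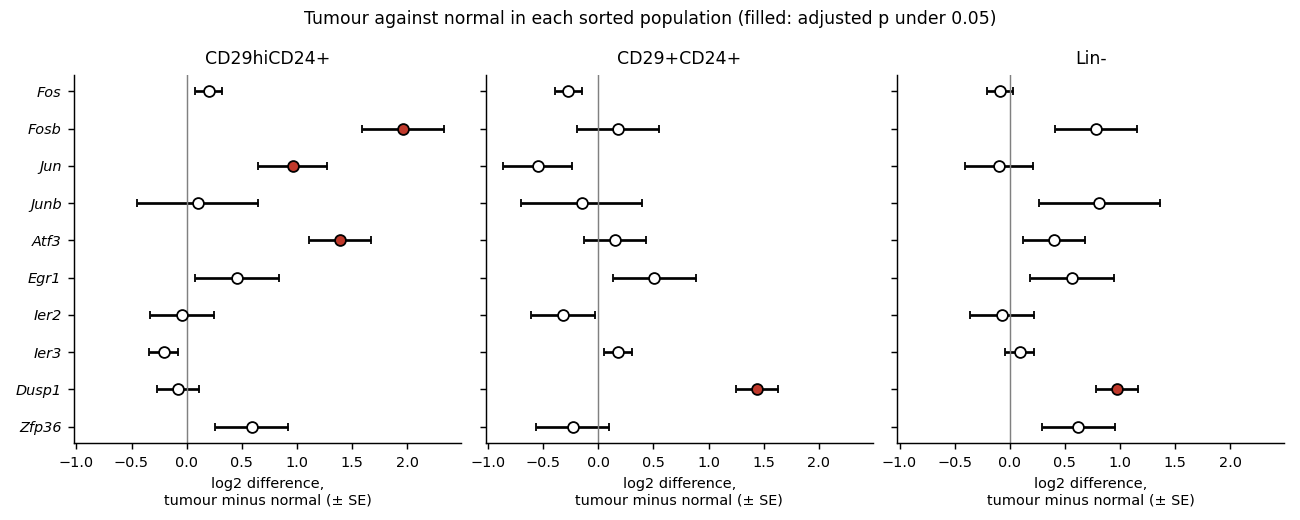
The log2 difference of tumour minus normal for each gene in CD29hiCD24+, CD29+CD24+ and Lin- cells, with standard errors as bars. Filled points passed an adjusted p of 0.05. Fosb, Jun and Atf3 are filled in CD29hiCD24+ cells, and Dusp1 is filled in the other two panels at 1.44 and 0.97.

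In CD29+CD24+ cells Dusp1 alone of the 10 was called, 2.71-fold higher in tumours. That is 1 of 10 called higher, against 16.4% of all genes, and 0 of 10 called lower, against 27.1%. At an unadjusted p under 0.05 in limma, Dusp1 was higher and Fos lower, with no share of all genes counted at that threshold. Dusp1 had 14.76, 14.52, 14.27, 14.37 and 14.37 in tumour CD29+CD24+ cells, against 12.73, 13.34 and 13 in normal cells. The groups did not overlap, and the difference was 1.44 ± 0.19 (adjusted p = 2.78e-06). For all 10 genes the median difference was 0, and for all genes -0.01. Of the markers in this contrast, 5 of 9 fibroblast and 5 of 9 basal markers were higher in tumours and 9 of 10 luminal markers were lower, and their part in the results was not tested.

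Jun pointed the other way in CD29+CD24+ cells. It had 14.51, 14.28, 13.15, 14.07 and 14.12 in tumour cells, against 14.33, 14.63 and 14.76 in normal cells, a difference of -0.55 ± 0.31 (adjusted p = 0.17). The second Jun probe set had 12.40, 12.01, 11.34, 12.01 and 11.79 in tumour cells, against 12.81, 12.92 and 12.98 in normal cells, with no overlap. Its difference was -0.99 ± 0.27 (adjusted p = 0.00529), where 39.1% of probe sets were called. The Jun probe sets had the same sign here and only the second was called, and the mean of both gave -0.77 (adjusted p = 0.0283). Fos had 15.05, 14.90, 14.46, 14.82 and 14.82 in tumour cells, against 14.98, 15.13 and 15.12 in normal cells, and differed by -0.27 ± 0.12 (adjusted p = 0.0921). Fosb differed by 0.18 ± 0.37, Atf3 by 0.15 ± 0.28 and Egr1 by 0.51 ± 0.38, none of them called.

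In Lin- cells Dusp1 was again the member called, 1.95-fold higher in tumours. That is 1 of 10 higher against 13.9% of all genes and 0 of 10 lower against 26.6%. The median difference of the 10 genes was 0.48, and that of all genes was -0.08. At an unadjusted p under 0.05 in limma, Dusp1 and Fosb were higher and 0 were lower. The share of all genes at that threshold was not counted. Dusp1 had 14.55, 14.63, 14.45, 14.40 and 14.32 in tumour Lin- cells, against 13.46, 13.33 and 13.72 in normal cells, a difference of 0.97 ± 0.19 (adjusted p = 0.000336). Fosb had 13.18, 12.82, 12.33, 11.81 and 12.23 in tumour cells, against 12.01, 11.05 and 12.04 in normal cells. These ranges overlapped through tumour D, and the difference was 0.78 ± 0.37 (adjusted p = 0.101). Fosb was called without tumour D, at 0.94 (adjusted p = 0.0368), and Atf3 without tumour C, at 0.58 (adjusted p = 0.0202). The second Jun probe set differed by -0.80 ± 0.27 (adjusted p = 0.0233), where 36% of probe sets were called, while the first differed by -0.10 ± 0.31.

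The sample numbers in the labels fall in 3 ranges, and 1 of these holds tumour E and all 3 pools. Within it tumour E exceeded the mean of the pools by 1.35 for Dusp1 in CD29+CD24+ cells and by 0.82 in Lin- cells. In CD29hiCD24+ cells tumour E exceeded the pool mean by 1.51 for Fosb, 1.26 for Atf3 and 0.67 for Jun. Each of these is 1 tumour against 3 pools and gives no test.

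The series also compares the gates within a tissue. In normal glands CD29hiCD24+ cells had lower Fosb, Jun and Atf3 than CD29+CD24+ cells, by 2.49-fold, 2.47-fold and 2.07-fold, and higher Dusp1 and Ier3, by 2.82-fold and 1.41-fold. These are 3 of 10 called lower, where 25.3% of all genes were, and 2 of 10 called higher, where 21.3% were. About as many genes at large were called between these gates, so the counts do not set the 10 genes apart.

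Fosb had 11, 10.12 and 10.91 in normal CD29hiCD24+ cells of pools F, G and H, against 11.88, 11.71 and 12.39 in CD29+CD24+ cells, a difference of -1.31 ± 0.41 (adjusted p = 0.0118). Jun had 12.88, 13.39 and 13.54 against 14.33, 14.63 and 14.76 in the same gates, a difference of -1.30 ± 0.35 (adjusted p = 0.00369). Atf3 had 12.71, 12.44 and 12.48 against 13.54, 13.55 and 13.70, a difference of -1.05 ± 0.31 (adjusted p = 0.00821). Each of the 3 genes was lower in the CD29hiCD24+ gate of each pool, with no overlap between the gates. Without pool H the Fosb and Atf3 differences of -1.23 and -0.97 were not called (adjusted p = 0.0708 and 0.0652), and without pool G that of Fosb, -1.18, was not (adjusted p = 0.0557). The second Jun probe set differed by -1.95 ± 0.30 (adjusted p = 2.09e-05), where 41.8% of probe sets were called.

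Dusp1 ran the other way, with 14.67, 14.33 and 14.56 in normal CD29hiCD24+ cells against 12.73, 13.34 and 13 in CD29+CD24+ cells. It was higher in 3 of 3 pools, by 0.99 to 1.94, and the fitted difference was 1.5 ± 0.21 (adjusted p = 7.03e-06). Ier3 had 13.82, 13.47 and 13.34 in CD29hiCD24+ cells against 13.10, 13.23 and 12.81 in CD29+CD24+ cells, a difference of 0.50 ± 0.14 (adjusted p = 0.00674). It was also higher in 3 of 3 pools, by 0.23 to 0.72. The pool F array with leukocyte markers is 1 of the 3, and without it Ier3 differed by 0.36 (adjusted p = 0.0612) and Dusp1 by 1.42 (adjusted p = 8.78e-05).

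Zfp36 was lower in the CD29hiCD24+ gate of 3 of 3 pools, with differences of -0.78 to -0.64, and was not called at -0.71 ± 0.36 (adjusted p = 0.118). Fos was lower in 3 of 3 pools, at -0.33 ± 0.14 (adjusted p = 0.0624). With tumour or pool as a block, Fos was called (adjusted p = 0.0107) and so was Zfp36 (adjusted p = 0.0494). In a limma fit of only the groups compared, Fos (adjusted p = 0.0442) and Zfp36 (adjusted p = 0.00325) were called too. Fos was also called with a block for the range of sample numbers (adjusted p = 0.0288). It was called without tumour A (adjusted p = 0.0325) and without tumour C (adjusted p = 0.0208). Junb differed by -0.17 ± 0.61, Ier2 by -0.30 ± 0.33 and Egr1 by 0.12 ± 0.42. Egr1 was 1.32 higher in the CD29hiCD24+ gate of pool F and lower in the other two pools.

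The actin 3' minus 5' signal did not overlap between these normal gates, so RNA quality and gate cannot be told apart here. With the actin signal as a covariate 1 of 10 genes was called, in place of 5, and 36.4% of all genes, in place of 46.6%. Dusp1 stayed called at 1.72 (adjusted p = 2.15e-05). Fosb differed by -0.54 (adjusted p = 0.355), Jun by -0.78 (adjusted p = 0.121), Atf3 by -0.63 (adjusted p = 0.184) and Ier3 by 0.41 (adjusted p = 0.0712). The 3' minus 5' signal of Gapdh did not move in this way, at 1.80 to 2.37 in normal CD29hiCD24+ and 2.22 to 2.28 in normal CD29+CD24+ arrays.

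**Figure D3:**
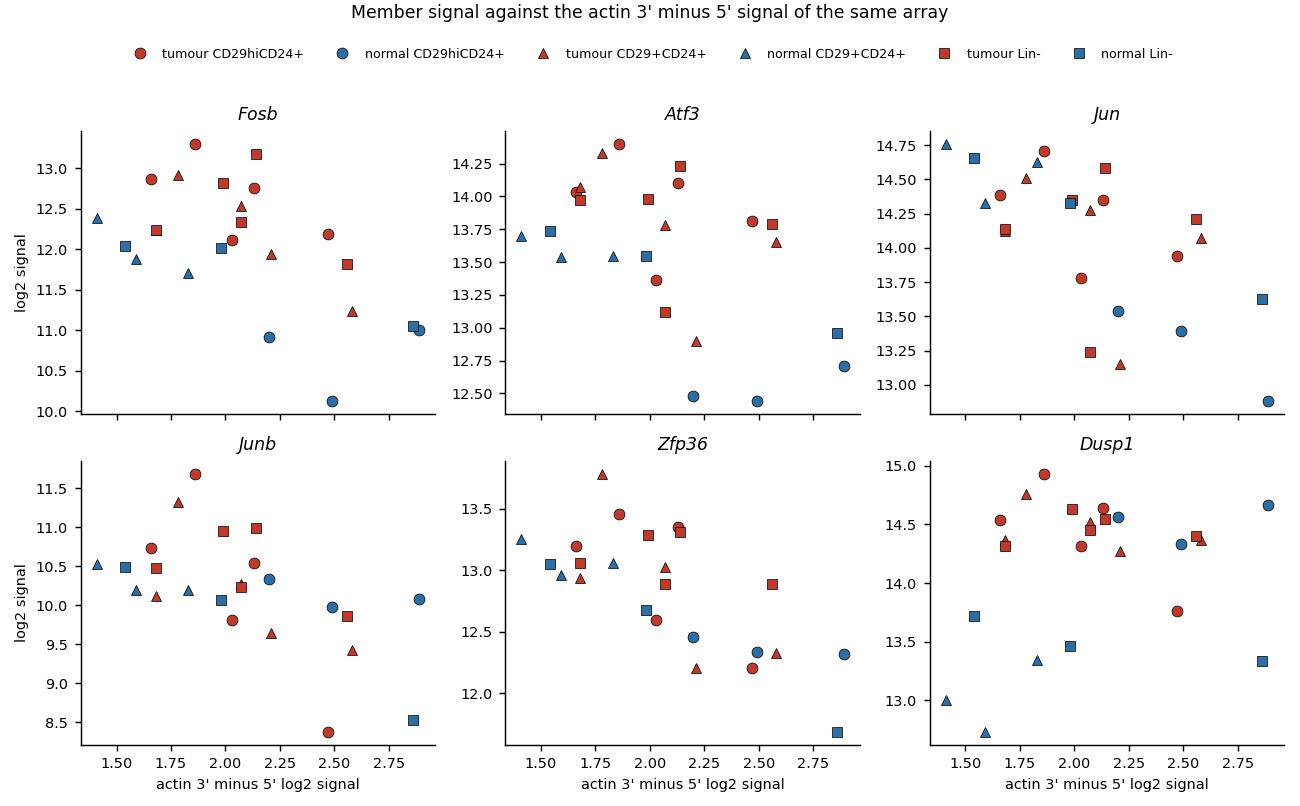
The log2 signal of 6 genes against the 3' minus 5' actin log2 signal of the same array, for 24 arrays marked by group. Normal CD29hiCD24+ arrays lie at 2.20 to 2.89 and normal CD29+CD24+ arrays at 1.41 to 1.83 on the horizontal axis. Junb has its lowest values, 8.38 and 8.53, in a tumour CD29hiCD24+ and a normal Lin- array with actin values of 2.47 and 2.86. In other arrays with high actin values it is not as low. It is 10.08 in normal CD29hiCD24+ cells of pool F, at 2.89, and 9.86 in tumour D Lin- cells, at 2.56.

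In tumours none of the 10 genes passed the test between the same gates. Counts were 0 of 10 higher, where 2.25% of all genes were, and 0 of 10 lower, where 1.94% were. Limma gave 0 at an unadjusted p under 0.05, and the share of all genes at that threshold was not counted. The lowest unadjusted p was 0.156, for Fosb, at 0.47 ± 0.32. Atf3 differed by 0.19 ± 0.24, Jun by 0.21 ± 0.27, Dusp1 by -0.02 ± 0.16 and Ier3 by 0.10 ± 0.11. After quantile normalisation 491 genes were higher and 215 lower here, in place of 304 and 261. The main fit does not pair the gates of the same tumour. With tumour or pool as a block 905 genes were higher and 912 lower, and still 0 of the 10 were called. The related lists described below were not counted with this block at the tumour gates. Within single tumours the Fosb difference ran from -0.05 in tumour E to 1.51 in tumour D, and it was above 0 in 4 of 5.

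**Figure D4:**
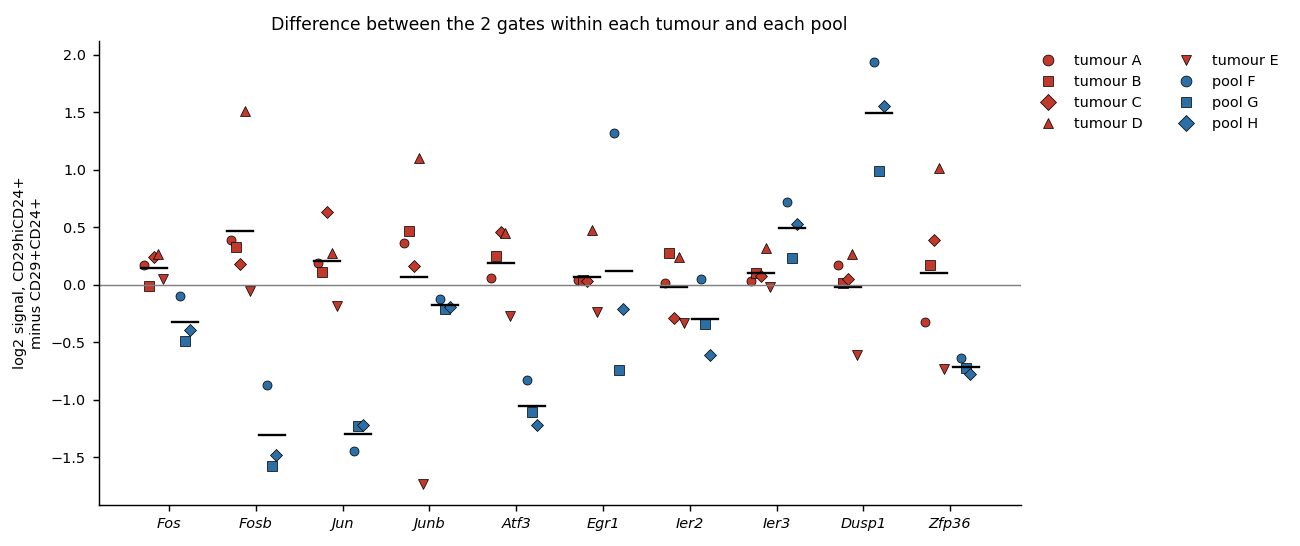
The log2 signal of CD29hiCD24+ minus that of CD29+CD24+ cells of the same tumour or pool, for each gene. Red points are tumours, blue points are pools, and bars are means. Fosb, Jun and Atf3 lie under 0 in 3 of 3 pools, and Dusp1 and Ier3 above it.

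The difference between the tissues in this gate contrast was tested directly, as the tumour difference minus the normal one. It was positive for Fosb, Jun, Atf3 and Fos and negative for Dusp1. These are 4 of 10 called higher, where 22.2% of all genes were, and 1 of 10 called lower, where 19.8% were. Fosb had 1.78 ± 0.52 (adjusted p = 0.00883), Jun 1.51 ± 0.44 (adjusted p = 0.00841) and Atf3 1.24 ± 0.39 (adjusted p = 0.015). Fos had 0.47 ± 0.18 (adjusted p = 0.0374). Dusp1 had -1.52 ± 0.27 (adjusted p = 0.000144). The second Jun probe set had 2.14 ± 0.38 (adjusted p = 0.000172), where 37.4% of probe sets were called.

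Quantile normalisation moved the median of all genes by 0.12 in this contrast, and relative to that shift the Fosb, Jun and Atf3 differences of 1.98, 1.64 and 1.41 stayed positive and Dusp1, at -1.40, negative. This contrast includes the normal gates, where RNA quality and gate cannot be told apart. With the actin covariate 1 of 10 genes was called, in place of 5, and 33.3% of all genes, in place of 42%. Dusp1 was at -1.75 (adjusted p = 0.000182), Fosb at 0.98 (adjusted p = 0.14), Jun at 0.97 (adjusted p = 0.111) and Atf3 at 0.81 (adjusted p = 0.155). Ier3 had -0.39 ± 0.18 (adjusted p = 0.0866), and with tumour or pool as a block it was called (adjusted p = 0.0341).

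Against Lin- cells, normal CD29hiCD24+ cells had higher Dusp1, at 1.01 ± 0.21 (adjusted p = 0.000696), and Ier3, at 0.39 ± 0.14 (adjusted p = 0.0343). They had lower Atf3, at -0.87 ± 0.31 (adjusted p = 0.0301), and Jun, at -0.94 ± 0.35 (adjusted p = 0.035). These are 2 of 10 higher, where 17% of all genes were, and 2 of 10 lower, where 23.2% were. Fosb differed by -1.02 ± 0.41 (adjusted p = 0.0536), and with tumour or pool as a block it was called (adjusted p = 0.00762). The pool G Lin- array had an actin signal of 2.86 and the lowest Fosb, Junb, Atf3, Jun and Zfp36 of the 3 normal Lin- arrays. A link between these signals was not tested. Without this array Fosb differed by -1.34 (adjusted p = 0.0205) and Ier3 by 0.39 (adjusted p = 0.0656). Without the pool F CD29hiCD24+ array Jun differed by -0.74 (adjusted p = 0.152) and Ier3 by 0.25 (adjusted p = 0.218).

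The other contrasts with Lin- cells called 0 of 10 genes in either direction. The shares of all genes called higher and lower were 3.74% and 4.63% for tumour CD29hiCD24+ over Lin- cells, 0.512% and 3.68% for normal CD29+CD24+ over Lin- cells, and 0.00742% and 0.208% for tumour CD29+CD24+ over Lin- cells. In limma at an unadjusted p under 0.05 the counts were 0, 1 and 0, and the 1 was Dusp1 in normal tissue, at -0.48 ± 0.21. Shares of all genes at that threshold were not counted. Quantile normalisation gave 792 higher and 494 lower genes for tumour CD29hiCD24+ over Lin- cells, in place of 504 and 624.

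Ordered by group mean, Fosb and Atf3 had normal CD29hiCD24+ cells at the bottom, and the group above it, normal Lin- cells, did not overlap with it. Fosb averaged 12.64 ± 0.49 in tumour CD29hiCD24+ cells and 10.68 ± 0.48 in normal CD29hiCD24+ cells (SD, n = 5 and 3). For Dusp1 a gap lay between 4 groups with means of 14.44 to 14.52 and a pair of lower groups, normal Lin- cells at 13.50 ± 0.20 and normal CD29+CD24+ cells at 13.02 ± 0.31 (SD, n = 3 each). For the second Jun probe set normal CD29hiCD24+ cells stood below tumour Lin- cells without overlap. All other neighbours in the order of group means overlapped, for these genes and the rest.

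The order of single tumours was alike for many of the 10 genes. Tumour A was the highest of the 5 for 8 of 10 genes in CD29hiCD24+ cells, 10 of 10 in CD29+CD24+ cells and 7 of 10 in Lin- cells. Over all genes tested it was the highest for 31.8%, 28.8% and 13.5%. Tumour C was the lowest for 6, 7 and 4 of the 10, against 23%, 26.4% and 27.0% of all genes. Tumour E was the lowest for Junb, Egr1, Dusp1 and Zfp36 in CD29hiCD24+ cells. The 10 genes share arrays, so these counts are not independent of each other.

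Relatives of the AP-1 members did not all move as Fosb and Jun did. Of 8 measured, 1 was higher and 3 lower in tumour than in normal CD29hiCD24+ cells, where 15.6% and 22.9% of all genes were. Jund, a Jun protein, was higher by 0.53 ± 0.16 (adjusted p = 0.0118), and Jdp2, a repressor of AP-1, was lower, at -2.24 ± 0.50 (adjusted p = 0.00134), with Maff and Mafk lower too. Fosl1, a Fos family member, had 12.69 ± 0.25 in tumour and 11.97 ± 0.14 in normal CD29hiCD24+ cells, which was not called, and 12.55 ± 0.57 in tumour and 9.99 ± 0.55 in normal CD29+CD24+ cells (SD, n = 5 and 3). Its difference in CD29+CD24+ cells was 2.56 ± 0.30 (adjusted p = 4.44e-07), and that of Fosl2 was 1.97 ± 0.18 (adjusted p = 2.3e-08). In normal glands Fosl1 and Fosl2 were higher in CD29hiCD24+ than in CD29+CD24+ cells, by 1.99 ± 0.33 and 2.03 ± 0.21, where Jund was lower, at -0.67 ± 0.18. In that gate contrast 3 relatives were higher and 1 lower, where 21.3% and 25.3% of all genes were. With the actin covariate 4 were higher and 1 lower, where 36.4% of all genes were called in either direction, in place of 46.6%.

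Of 42 other immediate early genes measured, 22 were higher and 8 lower in normal CD29hiCD24+ than in CD29+CD24+ cells. Over all genes 21.3% were higher and 25.3% lower, and the median difference was -0.03, against 0.70 for these 42. Among them were Arc, a neuronal activity gene, at 6.89 ± 0.51, and the orphan nuclear receptors Nr4a2 and Nr4a3, at 5.90 ± 0.68 and 5.08 ± 0.31. Nr4a2 averaged 13.08 ± 0.21 in normal CD29hiCD24+ and 7.18 ± 0.51 in normal CD29+CD24+ cells (SD, n = 3 each). Ccn2, a matrix protein that stromal cells also make, differed by 8.70 ± 1.0. Without the pool F CD29hiCD24+ array 18 were higher and 7 lower, and with the actin covariate 19 and 3. In these fits 40.5% and 36.4% of all genes were called in either direction, in place of 46.6%. Basal markers moved with this contrast, 9 of 9 higher, as did luminal markers, 6 of 10 lower. Endothelial markers, 8 of 10 higher, and fibroblast markers, 6 of 9 higher, moved with it too. The part of all these markers in the counts was not tested.

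In tumours these gates differed in 1 of the 42, against 4.19% of all genes. It was the antiproliferative gene Btg1, at -0.32 ± 0.08 (adjusted p = 0.0305). Between tissues, 22 were higher and 4 lower in tumour CD29+CD24+ cells, where 16.4% and 27.1% of all genes were. In tumour Lin- cells 19 were higher and 3 lower, where 13.9% and 26.6% of all genes were. In CD29hiCD24+ cells 11 were higher and 9 lower, where 15.6% and 22.9% of all genes were. The count of 9 of 42 lower is near the background share. Id1, an inhibitor of helix-loop-helix factors, was at 2.11 ± 0.54. Sik1, a salt-inducible kinase, was at -2.74 ± 0.54 and Myc at -2.13 ± 0.44. There 11 were higher and 5 lower without the pool F array. Without it 32.7% of all genes were called in either direction, in place of 38.6%. Id1 was also among the largest in CD29+CD24+ cells, at 5.73 ± 0.54, together with Egr3, a relative of Egr1, at 5.01 ± 0.29.

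**Figure D5:**
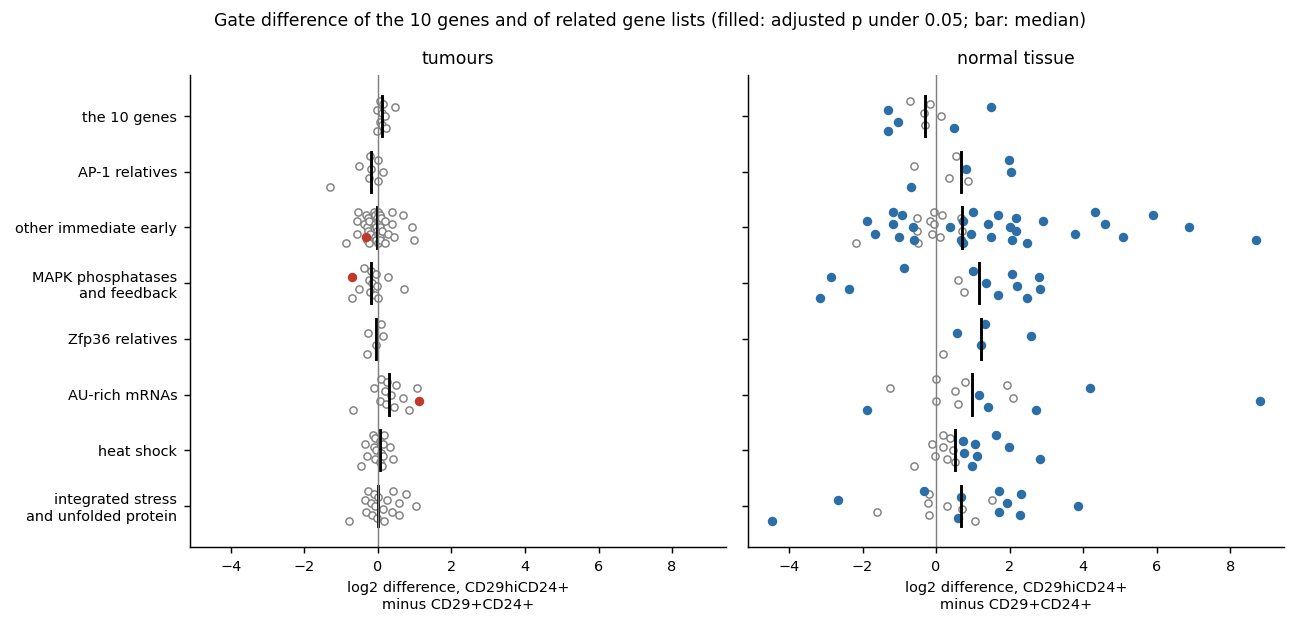
The log2 difference of CD29hiCD24+ minus CD29+CD24+ cells in tumours and in normal tissue, for the 10 genes and for 7 related lists. Each point is a gene, filled where it passed an adjusted p of 0.05, and bars are medians. Normal tissue spreads from about the value of Stc2, -4.45, to that of Il6, 8.81, and the tumours hold 3 filled points.

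The MAP kinase phosphatases and feedback inhibitors, the families of Dusp1 and its neighbours in the pathway, moved in both directions. Of 14, 8 were higher and 4 lower in the CD29hiCD24+ gate of normal glands, where 21.3% and 25.3% of all genes were. Dusp14 differed by 2.83 ± 0.40 and Spry4, a Sprouty inhibitor, by 2.79 ± 0.41, while Dusp4 and Dusp10 differed by -3.15 ± 0.38 and -2.86 ± 0.40. In tumour over normal CD29hiCD24+ cells 3 were higher and 7 lower, where 15.6% and 22.9% of all genes were. Dusp10 differed by 4.05 ± 0.35 and Spry4 by -3.08 ± 0.37. Dusp10 averaged 11.12 ± 0.32 in tumour and 7.08 ± 0.46 in normal CD29hiCD24+ cells (SD, n = 5 and 3). In CD29+CD24+ cells 7 were higher and 3 lower in tumours (4 and 3 with the actin covariate), against 16.4% and 27.1% of all genes. With that covariate 39.7% of all genes were called in either direction, in place of 43.5%. In the main fit Dusp14 was at 2.57 ± 0.36 in these cells. In Lin- cells 4 were higher and 2 lower, where 13.9% and 26.6% of all genes were. In tumours 1 of 14 differed between the gates, against 4.19% of all genes. It was Dusp16, at -0.70 ± 0.17 (adjusted p = 0.0222).

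The list named Zfp36 relatives held Zfp36l1 and Zfp36l2, and also Elavl1, Khsrp and Hnrnpd, which bind mRNA but are not of the Zfp36 family. Of these 5 measured genes, 0 were higher and 2 lower in tumour CD29hiCD24+ cells. Over all genes 15.6% were higher and 22.9% lower. The 2 were Zfp36l2 at -1.68 ± 0.37 (adjusted p = 0.00126) and Zfp36l1 at -0.75 ± 0.26 (adjusted p = 0.0275). At the normal gates 4 were higher in CD29hiCD24+ cells and 0 lower, where 21.3% and 25.3% of all genes were. Zfp36l2 differed by 2.57 ± 0.42 there, and Zfp36l1, Khsrp and Hnrnpd were higher too. Without the pool F array 1 was lower in the tumour comparison, and with the actin covariate 3 were higher at the normal gates. The shares of all genes called in either direction were then 32.7% and 36.4%, in place of 38.6% and 46.6%.

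Of 14 mRNAs with AU-rich elements that Zfp36 is known to bind, 3 were higher and 1 lower in tumour CD29hiCD24+ cells. Over all genes 15.6% were higher and 22.9% lower. Ptgs2, the inducible cyclooxygenase, averaged 13.81 ± 0.60 in tumour and 9.49 ± 0.52 in normal CD29hiCD24+ cells (SD, n = 5 and 3), a difference of 4.33 ± 0.47 (adjusted p = 4.12e-07). Tnf and Il23a, both cytokines, were higher by 3.53 ± 0.36 and 1.88 ± 0.40, and the cytokine Il6 was lower, at -3.25 ± 0.78. In tumour CD29+CD24+ cells 3 were higher and 0 lower, where 16.4% and 27.1% of all genes were. Ptgs2 was at 6.85 ± 0.47 and Il6 at 6.25 ± 0.78. In Lin- cells 3 were higher and 0 lower, where 13.9% and 26.6% of all genes were. Between tumour gates Tnf was higher in CD29hiCD24+ cells, by 1.13 ± 0.31 (adjusted p = 0.0435). At the normal gates 5 were higher and 1 lower (3 and 1 with the actin covariate), against 21.3% and 25.3% of all genes. With that covariate 36.4% of all genes were called in either direction, in place of 46.6%. In the main fit Il6 differed by 8.81 ± 0.87 and Tnf by -1.87 ± 0.40 at these gates.

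Heat shock genes, which respond to unfolded protein, gave 10 higher and 0 lower of 17 in tumour CD29+CD24+ cells and 11 higher and 0 lower in tumour Lin- cells. The median differences were 0.92 and 0.73, against -0.01 and -0.08 for all genes, of which 16.4% and 13.9% were higher. In CD29+CD24+ cells 5 of 9 fibroblast markers were higher too, with 5 of 9 basal markers, and 9 of 10 luminal markers were lower. The part of these markers in the count was not tested. The small chaperone Hspb8 differed by 2.44 ± 0.26 and 2.18 ± 0.26 in these populations, and the chaperone Hsph1 by 1.88 ± 0.33 and 1.37 ± 0.33. In tumour CD29hiCD24+ cells 3 were higher and 1 lower, where 15.6% and 22.9% of all genes were. Hspa4l differed by 2.95 ± 0.27 and Cryab, a small chaperone also known in muscle-like cells, by -2.99 ± 0.64. Leaving out the pool F array gave 4 higher and 1 lower, and with the actin covariate 5 were higher. The shares of all genes called in either direction were then 32.7% and 37.1%, in place of 38.6%. At the normal gates 8 of 17 were higher in CD29hiCD24+ cells and 0 lower, where 21.3% and 25.3% of all genes were. In tumours 0 were called in either direction between the gates, against 4.19% of all genes.

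The list of the integrated stress and unfolded protein responses, pathways in which Atf3 also acts, held 19 genes. In tumour CD29hiCD24+ cells 0 were called in either direction, where 15.6% of all genes were higher and 22.9% lower. Standard errors were large for some of the 19, such as 1.21 for Chac1 and 0.75 for Trib3. A link of this list to the Atf3 difference was not tested. In CD29+CD24+ cells 7 were higher and 2 lower, where 16.4% and 27.1% of all genes were. Ddit3, a pro-apoptotic stress factor, was at 2.76 ± 0.44 and Stc2 at -5.54 ± 0.71. In Lin- cells 4 were higher and 1 lower (6 and 3 with the actin covariate), against 13.9% and 26.6% of all genes. With that covariate 43.3% of all genes were called in either direction, in place of 40.6%. At the normal gates 8 were higher and 3 lower in CD29hiCD24+ cells, where 21.3% and 25.3% of all genes were. Vldlr, a lipoprotein receptor, was at 3.87 ± 0.69 there. In tumours 0 were called in either direction between the gates, against 4.19% of all genes.

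Of 20 serum response factor partners and MAP kinases, which are known to act upstream of immediate early genes, 0 were higher and 7 lower in tumour CD29hiCD24+ cells, where 15.6% and 22.9% of all genes were. Endothelial markers moved with this contrast, 9 of 10 lower, and their part in the count was not tested. Crem, a cAMP-responsive regulator, differed by -3.77 ± 0.41 (adjusted p = 4.25e-07), and Srf, serum response factor itself, by -1.07 ± 0.20 (adjusted p = 0.000285). Srf was also lower in tumour CD29+CD24+ and Lin- cells, at -0.96 ± 0.20 and -1.21 ± 0.20. In CD29+CD24+ cells 1 was higher and 4 lower, in Lin- cells 1 and 5, at the normal gates 5 and 2, and at the tumour gates 0 and 0. Over all genes the shares were 16.4% and 27.1%, 13.9% and 26.6%, 21.3% and 25.3%, and 2.25% and 1.94%, in this order. Without the pool F array the count of lower genes in CD29hiCD24+ cells was 5. At the normal gates 3 were then higher and 2 lower, as with the actin covariate. Without that array 32.7% and 40.5% of all genes were called in either direction, in place of 38.6% and 46.6%. With the covariate 36.4% were called at the normal gates.

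In the test of the gate difference between tissues, the related lists had these calls, where 22.2% of all genes were higher and 19.8% lower. The counts of higher and lower genes were 1 and 3 for the AP-1 relatives, 3 and 20 for the other immediate early genes, 4 and 8 for the phosphatases and feedback inhibitors, and 0 and 3 for the Zfp36 relatives. They were 1 and 2 for the AU-rich mRNAs, 1 and 7 for heat shock genes, 2 and 8 for the integrated stress and unfolded protein list, and 1 and 4 for the serum response factor list. Some of these shares are near the background, such as 2 of 14 and 4 of 20. Without the pool F CD29hiCD24+ array the integrated stress and unfolded protein list had 2 higher and 5 lower. Heat shock genes had 0 and 6 without it. With the actin covariate the first of these lists had 2 and 2. Without that array 36.7% of all genes were called in either direction, and with the covariate 33.3%, in place of 42%. With tumour or pool as a block the AP-1 relatives had 1 and 5 and the other immediate early genes 10 and 24. The serum response factor list had 2 and 7 with this block. Over all genes the block gave 3689 higher and 3187 lower, in place of 2996 and 2669. In either direction that was 51% of all genes, in place of 42%, so the background rose too. The median was -0.73 for the other immediate early genes and 0.38 for the 10 members, against 0.04 for all genes. Il6 had -9.50 ± 1.10, Nr4a2 -5.98 ± 0.86 and Fosl2 -2.21 ± 0.26.

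The genes whose signal was most like the mean of the 10 over the 24 arrays were Itm2b, Bhlhe40, Cox18, Hes1 and Klf2, with Pearson r of 0.850, 0.840, 0.838, 0.833 and 0.816. The arrays share groups, scaling and RNA quality, so these are descriptions. Bhlhe40, a transcriptional repressor, averaged 13.19 in tumour and 11.41 in normal CD29hiCD24+ cells. Hes1, a Notch target, averaged 9.67 in tumour and 7.55 in normal CD29hiCD24+ cells, against 9.25 to 9.75 in the other groups. Bhlhe40, Hes1 and Klf2 also stand in the list of other immediate early genes.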

How the data were processed

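The deposited values are log2 signals per Affymetrix probe set, made by the authors, and the submitters' processing notes list RMA, GCRMA and Partek without saying which step each one did or in what version. Values ran from 0.489 to 16.06, a range that fits a log2 scale. The number of arrays, 24, limits the precision. Probe sets over the 40th percentile (2.83) in at least 3 arrays were kept; where several were kept for a gene, the one with the largest mean was used, giving 13485 genes. limma 3.58.1 in R 4.3.3 fitted 6 group means, with 10 contrasts and a trended eBayes, and the threshold was an adjusted p (Benjamini-Hochberg, over all genes) of 0.05. Each log2 unit is a factor of 2. The low band is at or under 2.83. The fit was tested on simulated data.

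The 3 populations of a letter come from the same tumour or pool by their titles, apart from 2 normal titles without a letter, which must be H since F and G were taken. With group means removed, arrays of 1 tumour correlated at a median of 0.578 (0.359 to 0.738) and arrays of 1 pool at 0.142 (-0.038 to 0.319). Alternatives were 20: normalisation, filter, probe set choice, blocks, covariates and left-out samples, 2 of them added after seeing the data. The members and lists were chosen with earlier results of these data known. All 10 genes are named; of each list, up to 4 called genes with the largest differences per contrast, or any of a list of at most 12. Bhlhe40, Hes1, Itm2b, Cox18 and Klf2 are the 5 most correlated genes. Gene names are from the platform annotation, promoters from RefSeq (GRCm38.p6). An Egr1 promoter is not reported here, and that of Ier2 was not used.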

Additional observations from a re-analysis of the deposited data

Results flagged for a closer look

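The gate contrast, CD29hiCD24+ minus CD29+CD24+, differed between tumours and normal glands by limma's test of the difference itself for 5 of the 10 genes, where 42% of all genes were called, a like share. With the actin covariate 1 of the 10 was called, Dusp1, and 33.3% of all genes. The tumour minus normal differences were 1.78 for Fosb, 1.51 for Jun, 1.24 for Atf3, 0.47 for Fos and -1.52 for Dusp1. In tumours 4 of 5 single differences were above 0 for each of these genes, and in pools 3 of 3 were below 0 for Fosb, Jun, Atf3 and Fos and above 0 for Dusp1.

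For Ier3, tumour C was apart from the other 4 tumours in CD29+CD24+ cells, at 12.97, with a gap of 0.721 of the range of the group. Of 33 groups of 5 tested, about 1 in 20 would be set apart by chance.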

How the results depend on the processing

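Of 19 calls on the 10 genes, 7 held under all 20 alternatives and 0 reversed. The 7 are Atf3 and Fosb in tumour over normal CD29hiCD24+ cells and Dusp1 in its 5 contrasts. With the actin covariate 1 gene was called at the normal gates (5 without it), 1 in the gate difference between tissues (5) and 1 in normal CD29hiCD24+ over Lin- cells (4). The shares of all genes were 36.4%, 33.3% and 38.8%, in place of 46.6%, 42% and 40.2%. The count over Lin- cells was 2 with only the groups compared and 2 without the CD29hiCD24+ array of pool F. There 34.2% and 33.3% of all genes were called. In tumour over normal CD29+CD24+ cells the count was 2, in place of 1, with the mean of all kept probe sets (adding Jun) and with a block for the range of sample numbers (adding Fos at -0.34). The shares of all genes were 43.4% and 41.6%, in place of 43.5%. Leaving out 1 tumour, pool or array gave 2 to 4 calls for tumour over normal in CD29hiCD24+, 1 to 2 in CD29+CD24+ and 1 to 2 in Lin- cells. It gave 3 to 6 calls at the normal gates, 3 to 5 in the gate difference and 1 to 5 in normal CD29hiCD24+ over Lin- cells. The share of all genes called moved too. In tumour over normal CD29hiCD24+ cells it was 31.4% without pool F and 39.4% without tumour D, against 38.6%. Without pool F it was 34% at the normal gates, against 46.6%. At the normal gates, Fosb was lost without pool G (-1.18, adjusted p = 0.0557) and without pool H (-1.23, adjusted p = 0.0708), and Atf3 without pool H (-0.97, adjusted p = 0.0652). In the gate difference Atf3 was lost without pool H (1.16, adjusted p = 0.0675), and Fos was lost under 7 alternatives. These 7 include leaving out tumours B, D and E and pools G and H. Over all 20 alternatives the Fos difference ran from 0.39 to 0.58. In normal CD29hiCD24+ over Lin- cells Jun was lost under 8 and Ier3 under 7. The replicate block (tumour or pool, correlation 0.321) added Fos (-0.33) and Zfp36 (-0.71) at the normal gates, Ier3 (-0.39) in the gate difference and Fosb (-1.02) over Lin- cells, and changed no other call on the 10 genes. At the normal gates Fos and Zfp36 were also added with only the groups compared, and Fos with the block for the range of sample numbers. The actin signal did not overlap between the normal gates, so RNA quality and gate cannot be told apart there. The cause of each change was not tested. The standard error limits what could be called: Junb in tumour over normal Lin- cells was at 0.81 ± 0.55 and was not called.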
